A study of Mus musculus with 10 samples.

Results

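The genes of the proteasome, the protease that degrades ubiquitin-tagged proteins, were examined in RNA sequencing of mouse spleen erythroblasts, the precursors of red blood cells. Members were the genes whose symbol begins with Psma, Psmb, Psmc or Psmd followed by a digit, with pseudogenes left out and at least 10 counts summed over the libraries. This rule gave 40 of the 53465 genes of the count table. The lowest of them was Psmb11, with 15 counts in all, and pseudogenes aside no gene of the family missed the minimum. All mice were on the C57BL/6 background and had received 5-FU, a drug that kills dividing blood precursors, and cells were taken 11 days later. There were 3 libraries of Nrf2/miR-144/451-/- cells, which lack both Nrf2 and the miR-144/451 microRNA cluster and are called double-null here, and 3 of Nrf2-/- cells. A further 2 libraries came from miR-144/451-/- cells and 2 from wild type cells. Nrf2, encoded by Nfe2l2, is a transcription factor of the antioxidant response, and the cluster encodes microRNAs abundant in red cell precursors. The labels give no age, sex or number of mice per library and do not say whether replicates are separate animals, so p-values measure only the spread between these libraries.

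The proteasome has a barrel-shaped core of stacked rings capped by a regulatory particle. The alpha subunits (Psma genes) form the outer rings that gate the barrel, and the beta subunits (Psmb genes) form the inner rings that hold the cutting sites. The regulatory particle has a base, with the ATPases (Psmc genes) that unfold and thread the substrate, and a lid, which removes the ubiquitin chain. Interferon-gamma induces Psmb8, Psmb9 and Psmb10, which replace the constitutive catalytic subunits Psmb5, Psmb6 and Psmb7 to form the immunoproteasome of antigen presentation. Maturing red cell precursors use the proteasome to clear proteins that the mature cell no longer needs. Nrf2 and its relative Nrf1 (Nfe2l1) are known activators of proteasome genes, through the antioxidant response element of their promoters.

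The members comprised 8 alpha genes, 7 beta genes, 3 immunoproteasome genes, the thymus-specific beta gene Psmb11, 9 base genes, 8 lid genes and 3 chaperones of base assembly (Psmd5, Psmd9 and Psmd10). The remaining one, Psmc3ip, encodes a partner of a base ATPase that acts in meiotic recombination and is no subunit. The alpha, beta, base and lid genes are called the 32 standard subunits, although one of them, Psma8, encodes the testis form of an alpha subunit. The low-count filter passed 39 members, all but Psmb11.

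Promoter sequences from RefSeq (build GRCm38.p6, a later build than the mm9 named in the submitters' notes) were matched to 33 of the 40 members as windows from 250 bases before to 50 bases after the start site. The antioxidant response element was searched as TGACNNNGC on both strands. Its first letters are shared by the sites of the AP-1 and Maf factors, so a match is a description only. It lay in 5 of the 33 windows (15.15%), those of Psmb5, Psmb6, Psmc6, Psmd12 and Psmd9, against 12.39% of all 32851 windows. The letters CCAAT, the core of the CCAAT box, lay on either strand in 14 windows (42.42%), against 37.41% of all. An interferon-gamma activated site, searched as TTCNNNGAA, lay in 2 windows (6.06%, Psmb8 and Psmd2), against 8.3% of all. The windows of 4 beta genes are shown, the constitutive catalytic genes Psmb5 and Psmb6, which hold the antioxidant response element, Psmb3, whose change was the largest upward one in double-null cells, and Psmb9, the partner of Psmb6 that moved the opposite way. Capitals mark TGACNNNGC or CCAAT on either strand.
Psmb5, chr14:54617946-54618245, minus strand: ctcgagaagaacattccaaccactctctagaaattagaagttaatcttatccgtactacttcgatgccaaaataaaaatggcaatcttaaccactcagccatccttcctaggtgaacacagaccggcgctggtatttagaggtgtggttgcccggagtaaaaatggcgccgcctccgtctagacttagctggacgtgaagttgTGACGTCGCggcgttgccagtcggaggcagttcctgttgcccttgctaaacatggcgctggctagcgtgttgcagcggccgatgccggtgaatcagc
Psmb6, chr11:70525107-70525406, plus strand: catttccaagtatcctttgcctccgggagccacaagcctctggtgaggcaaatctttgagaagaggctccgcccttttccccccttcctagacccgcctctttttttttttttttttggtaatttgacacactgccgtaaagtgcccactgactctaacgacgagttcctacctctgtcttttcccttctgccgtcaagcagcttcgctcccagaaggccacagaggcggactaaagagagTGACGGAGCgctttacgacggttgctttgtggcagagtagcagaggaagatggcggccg
Psmb3, chr11:97703184-97703483, plus strand: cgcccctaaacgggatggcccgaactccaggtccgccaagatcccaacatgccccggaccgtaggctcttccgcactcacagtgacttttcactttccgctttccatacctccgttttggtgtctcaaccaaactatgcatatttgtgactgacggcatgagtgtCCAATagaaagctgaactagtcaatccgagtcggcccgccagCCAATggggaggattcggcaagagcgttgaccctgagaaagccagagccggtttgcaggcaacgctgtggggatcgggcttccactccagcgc
Psmb9, chr17:34187281-34187580, minus strand: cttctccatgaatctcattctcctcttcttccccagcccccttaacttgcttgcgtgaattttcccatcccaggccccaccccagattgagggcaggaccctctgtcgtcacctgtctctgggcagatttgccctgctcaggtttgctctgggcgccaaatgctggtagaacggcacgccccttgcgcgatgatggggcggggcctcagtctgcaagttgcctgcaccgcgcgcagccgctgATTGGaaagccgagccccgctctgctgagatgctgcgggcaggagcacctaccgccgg
Psmb5 and Psmb6 hold 1 antioxidant response element each and no CCAAT. Psmb3 holds 2 CCAAT boxes, and Psmb9 holds 1, on the other strand.

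Library totals ranged from 13087827 to 15131036 counts, of which the members took 0.339 to 0.410% in double-null, 0.240 to 0.273% in Nrf2-/-, 0.413 and 0.415% in miR-144/451-/- and 0.327 and 0.335% in wild type libraries. Mir144 had 0 counts in each double-null and miR-144/451-/- library, against 38 counts over the Nrf2-/- and 29 over the wild type libraries. Nfe2l2 counts, 2219 over the double-null, 2080 over the Nrf2-/-, 2587 over the miR-144/451-/- and 1738 over the wild type libraries, cover the whole gene and check nothing about the deletion. By Xist and Y-linked counts, double-null replicate 3 and both wild type libraries were female and the other 7 male. Genotype and sex therefore cannot be told apart in the comparisons of a single null with wild type. Of the 14 erythroid markers listed, 13 were found and all of them were tested, and they summed to 131844 to 162092 CPM in double-null, 114100 to 148165 CPM in Nrf2-/-, 92866 and 105461 CPM in miR-144/451-/- and 97245 and 136669 CPM in wild type libraries.

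Per length of gene and averaged over all libraries, the immunoproteasome genes were expressed below all standard subunits but Psma8. Normalised values per length of gene and library total (FPKM), averaged over all libraries, ran from 16.8 for the lid gene Psmd11 to 97.4 for the beta gene Psmb1, a 5.79-fold span over 31 standard subunits, with a median of 32.8. The next highest were the base ATPase gene Psmc3 at 81.8 FPKM and the beta gene Psmb4 at 72.8 FPKM. Psma8 stood apart at 0.468 FPKM, with 1 to 28 counts in a library. The immunoproteasome genes had 6.14 FPKM for Psmb10, 3.26 FPKM for Psmb9 and 1.88 FPKM for Psmb8, and the thymus gene Psmb11 had 0.0221 FPKM. Among the base chaperones, Psmd10 had 22.0 FPKM, Psmd5 13.3 FPKM and Psmd9 6.63 FPKM. The authors used 1 length per gene, which understates genes with long minor isoforms, so these levels are approximate. For Psmb1 this length was 1036 bases, while its annotated transcripts hold 4585 different stretches of 31 bases. The first place of Psmb1 and the span may therefore depend on the length used.

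**Figure D1:**
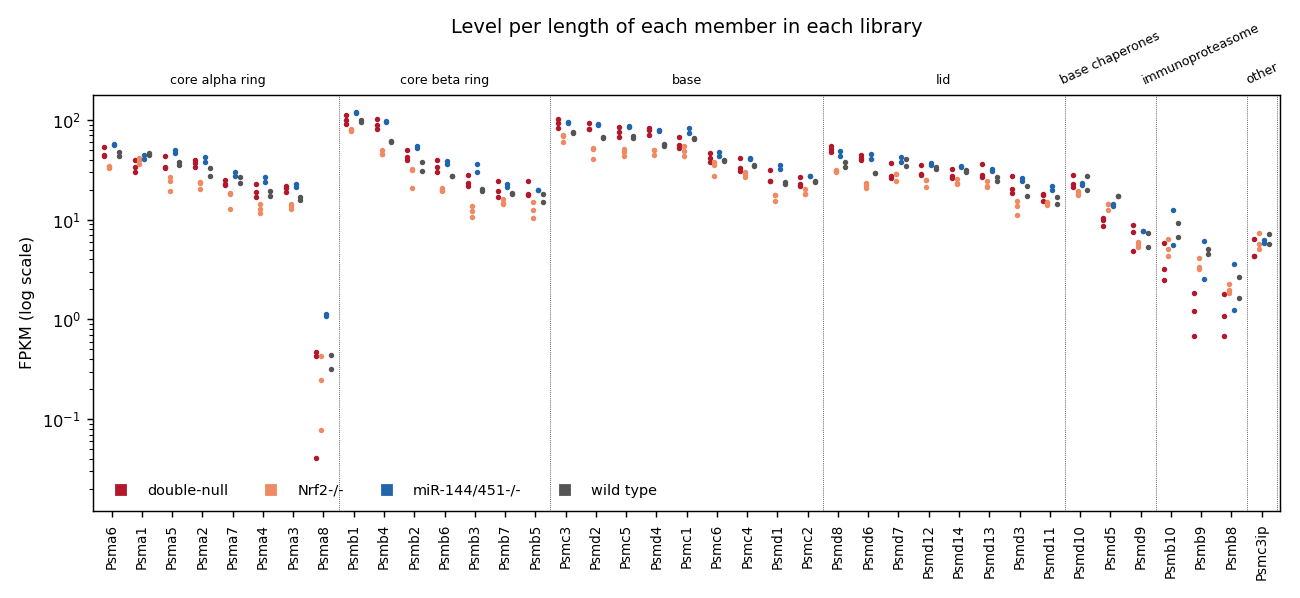
FPKM on a log scale for each of the 39 members that passed the low-count filter, ordered by class and then by level, with 1 point per library coloured by genotype. The standard subunits other than Psma8 lie within about an order of magnitude of each other, and Psmb8, Psmb9 and Psmb10 lie below them on average. The highest Psmb10 point, 12.6 FPKM in a miR-144/451-/- library, lies above single points of standard subunits such as the lowest of Psmb5, 10.5 FPKM, and the lowest Psmb9 points are in double-null libraries.

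The effect of losing the cluster in cells without Nrf2 was asked of double-null against Nrf2-/- cells. In this comparison 20 of the 39 tested members rose, all of them standard subunits, where 14.4% of all 14110 tested genes rose, and 2 fell, Psmb9 and Psmd5, where 12.9% of all genes fell. The median log2 fold change was 0.42 over the members, 0.52 over the 32 standard subunits and 0.02 over all tested genes. All standard subunits except Psma1 had a positive value. A call is an adjusted p under 0.05 in edgeR's quasi-likelihood test with Benjamini-Hochberg adjustment over all tested genes, and levels are CPM, counts per library size after TMM scaling. In 28 members every double-null library lay above every Nrf2-/- library, which held for 23.4% of all tested genes, and in 3 members (Psma1, Psmb9 and Psmd5) every double-null library lay below, which held for 21.8%.

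The rise reached each of the 4 structural classes. The alpha genes summed to 562 ± 34.5 CPM in double-null against 425 ± 25.1 CPM in Nrf2-/- libraries (mean ± SD, n = 3 each), and the beta genes to 564 ± 54.7 CPM in double-null against 354 ± 20.1 CPM in Nrf2-/- libraries. The base genes summed to 1625 ± 108 CPM in double-null and 1113 ± 70.1 CPM in Nrf2-/- libraries, and the lid genes to 858 ± 65.8 CPM in double-null and 614 ± 7.87 CPM in Nrf2-/- libraries. No double-null library overlapped an Nrf2-/- library in any of these 4 sums. Relative to the wild type mean, the 32 standard subunits together stood at 119, 113 and 130% in the double-null libraries and at 83.4, 87.4 and 80.0% in the Nrf2-/- libraries. They stood at 124 and 110% in the miR-144/451-/- libraries and at 92.4 and 108% in the wild type libraries.

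**Figure D2:**
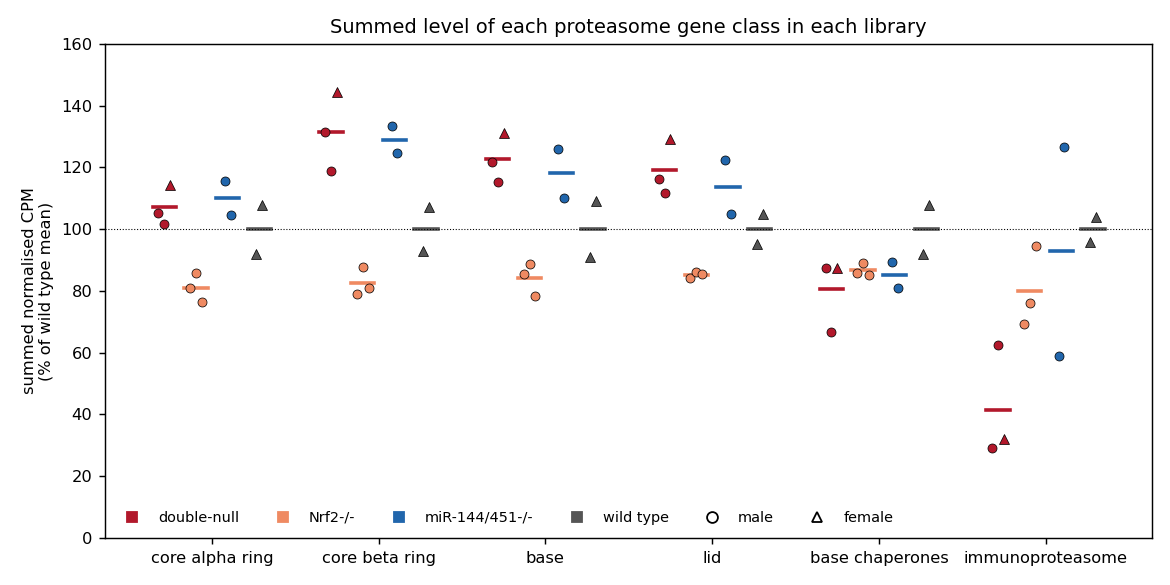
Summed normalised CPM of each gene class in each library, as a percentage of the wild type mean, with bars at the genotype means. Circles are male and triangles female libraries. For the alpha, beta, base and lid classes the 3 double-null libraries lie above the 3 Nrf2-/- libraries, while the immunoproteasome sum has its lowest genotype mean in double-null cells, with double-null replicate 2, at 62.5%, above miR-144/451-/- replicate 1, at 58.8%.

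Of the 8 alpha genes, which gate the entry to the core, 6 rose, with a class median of 0.52. Psma2 had 133, 141 and 145 CPM in double-null libraries, against 88.6, 89.5 and 81.5 CPM in Nrf2-/- libraries (log2 fold change 0.69 ± 0.15 SE, edgeR adjusted p = 0.00597). Psma5 had 47.5, 46.7 and 57.4 CPM in double-null libraries, against 32.8, 36.5 and 27.7 CPM in Nrf2-/- libraries (0.64 ± 0.15, edgeR adjusted p = 0.00865). Both genes separated the groups without overlap, but Psma5 shares 61.0% of its 31-base words with other annotated genes, mainly the gene Gm8394, so its counts are uncertain. Psma3, Psma4, Psma6 and Psma7 rose by 0.48 to 0.60 on the log2 scale. Psma1 went the other way, with 107, 91.7 and 117 CPM in double-null libraries, against 120, 127 and 117 CPM in Nrf2-/- libraries. Its double-null libraries all lay below its Nrf2-/- libraries, by a narrow margin, and the difference was not called (-0.21 ± 0.12, edgeR adjusted p = 0.219).

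Of the 7 beta genes, 5 rose, and their class median, 0.66, was the highest of the 4 structural classes. Psmb3, a beta subunit without a cutting site, had 57.6, 52.5 and 64.8 CPM in double-null libraries, against 28.4, 32.9 and 26.8 CPM in Nrf2-/- libraries. The groups lay far apart, a 1.99-fold difference (log2 fold change 0.99 ± 0.13, edgeR adjusted p = 0.000459). Psmb4, also without a cutting site, had 188, 165 and 199 CPM in double-null libraries, against 90.4, 102 and 97.3 CPM in Nrf2-/- libraries. The lowest double-null library again lay well above the highest Nrf2-/- library (0.93 ± 0.12, edgeR adjusted p = 0.000391). Among the catalytic genes, Psmb6 (caspase-like site) rose by 0.75 ± 0.12 and Psmb5 (chymotrypsin-like site) by 0.65 ± 0.20 on the log2 scale, while Psmb7 (trypsin-like site) had 0.40 ± 0.14 and was not called (edgeR adjusted p = 0.0534). In 20 other settings of the fit, Psmb6 was called in all 20 and Psmb5 in 14. Psmb2 rose by 0.66 ± 0.16. Psmb1, the member with the highest FPKM, had 112, 98.5 and 115 CPM in double-null libraries, against 81.1, 88.4 and 89.7 CPM in Nrf2-/- libraries. Its groups did not overlap, but the value of 0.33 ± 0.12 was not called (edgeR adjusted p = 0.0556). Psmb5 shares 71.7% of its 31-base words with other annotated genes, mainly the gene Gm3375, so its counts are uncertain as well. Psmb3 shares 21.7% of its words, Psma3, Psma4, Psmc1 and Psmd9 share 20.3 to 32.2%, and Psmb4 shares none.

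**Figure D3:**
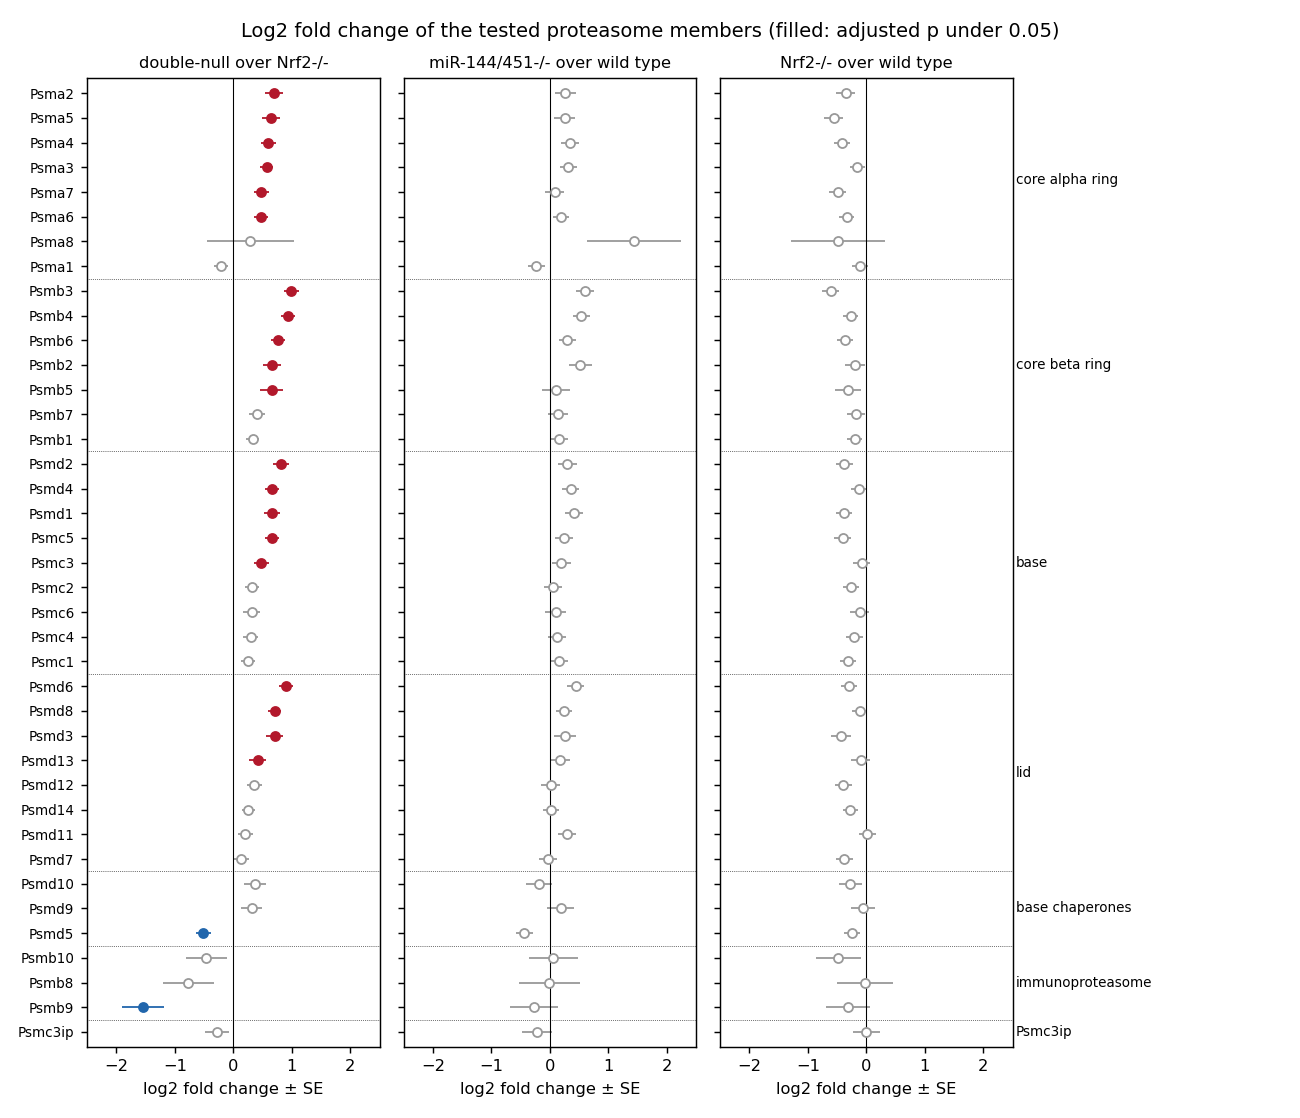
Log2 fold changes (points) with standard errors (bars) of the 39 tested members in 3 comparisons, grouped by class, with filled points for members past the adjusted p threshold. In double-null over Nrf2-/- 20 filled points lie to the right and 2 to the left, and in the other comparisons no point is filled, with most members right of 0 in miR-144/451-/- over wild type and left of 0 in Nrf2-/- over wild type.

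In the base, which binds and unfolds substrates, 5 of 9 genes rose, with a class median of 0.48. Psmd2, the scaffold on which ubiquitin shuttles dock, had 357, 339 and 379 CPM in double-null libraries, against 212, 221 and 180 CPM in Nrf2-/- libraries. All 3 double-null values exceeded all Nrf2-/- values by over 100 CPM (0.81 ± 0.13, edgeR adjusted p = 0.00133), though 31.6% of its 31-base words occur in other genes. Psmd4, a ubiquitin receptor that shares none of its words, had 214, 232 and 232 CPM in double-null libraries, against 144, 148 and 137 CPM in Nrf2-/- libraries. The groups were again separate (0.66 ± 0.12, edgeR adjusted p = 0.00263). The scaffold gene Psmd1 rose by 0.66, and of the 6 ATPase genes Psmc5 rose by 0.66 and Psmc3 by 0.48, while Psmc1, Psmc2, Psmc4 and Psmc6 had 0.25 to 0.32 and were not called. Psmc1, at the low end, had 116, 106 and 130 CPM in double-null libraries, against 96.1, 109 and 91.1 CPM in Nrf2-/- libraries, and these groups overlapped.

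In the lid 4 of 8 genes rose, with a class median of 0.39. Psmd6, a structural lid subunit, had 120, 121 and 124 CPM in double-null libraries, against 67.1, 65.1 and 63.6 CPM in Nrf2-/- libraries. Both groups were tight and far apart (0.90 ± 0.12, edgeR adjusted p = 0.000506). Psmd8, the last subunit to join the lid in yeast, had 159, 163 and 166 CPM in double-null libraries, against 94.7, 101 and 103 CPM in Nrf2-/- libraries. These were also separate (0.71 ± 0.12, edgeR adjusted p = 0.00141). Psmd3 rose by 0.70 and Psmd13 by 0.42, which was close to the threshold (edgeR adjusted p = 0.0496) and called in only 4 of 20 other settings. Psmd14, the enzyme that cuts off the ubiquitin chain, had 0.26, and its inactive partner Psmd7 had 0.13 ± 0.13 (edgeR adjusted p = 0.464). Psmd7 ranged from 63.9 to 82.9 CPM in double-null and from 59.6 to 67.9 CPM in Nrf2-/- libraries, which overlapped.

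Of the 3 assembly chaperones of the base, which leave before the particle is complete, 1 fell and none rose. Psmd5 fell, with 81.3, 65.6 and 71.7 CPM in double-null libraries, against 105, 107 and 99.3 CPM in Nrf2-/- libraries. The groups did not overlap (-0.51 ± 0.12, edgeR adjusted p = 0.0104). Psmd10, also known as gankyrin, ranged from 32.8 to 41.1 CPM in double-null and from 27.0 to 30.8 CPM in Nrf2-/- libraries (0.37 ± 0.18, edgeR adjusted p = 0.158). Psmd9 ranged from 36.5 to 63.7 CPM in double-null and from 41.4 to 45.3 CPM in Nrf2-/- libraries (0.31 ± 0.19, edgeR adjusted p = 0.236), and double-null replicate 2 was its low library. Psmc3ip, named like an ATPase but not part of the particle, had -0.28 and was not called.

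All 3 immunoproteasome genes had a negative log2 fold change in double-null against Nrf2-/- cells, and Psmb9 fell. Psmb9 had 2.68, 6.99 and 4.40 CPM in double-null libraries, against 12.4, 12.2 and 16.5 CPM in Nrf2-/- libraries. Every double-null library lay below every Nrf2-/- library, a 2.92-fold lower level (-1.55 ± 0.36, edgeR adjusted p = 0.00943). Psmb8 had 2.01, 5.17 and 2.95 CPM in double-null libraries, against 5.11, 6.39 and 5.81 CPM in Nrf2-/- libraries (-0.77 ± 0.44, edgeR adjusted p = 0.212). Psmb10 had 5.87, 10.4 and 4.25 CPM in double-null libraries, against 7.54, 8.95 and 11.8 CPM in Nrf2-/- libraries (-0.46 ± 0.35, edgeR adjusted p = 0.362). For both genes double-null replicate 2 reached into the Nrf2-/- range. In the male libraries alone, which leave 2 double-null libraries, 18 members rose and 1, Psmd5, fell. Of all 13802 genes tested there, 1504 rose and 1091 fell, a larger share falling than among the members. Psmb9 stood at -1.48 in the male libraries (edgeR adjusted p = 0.0723).

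**Figure D4:**
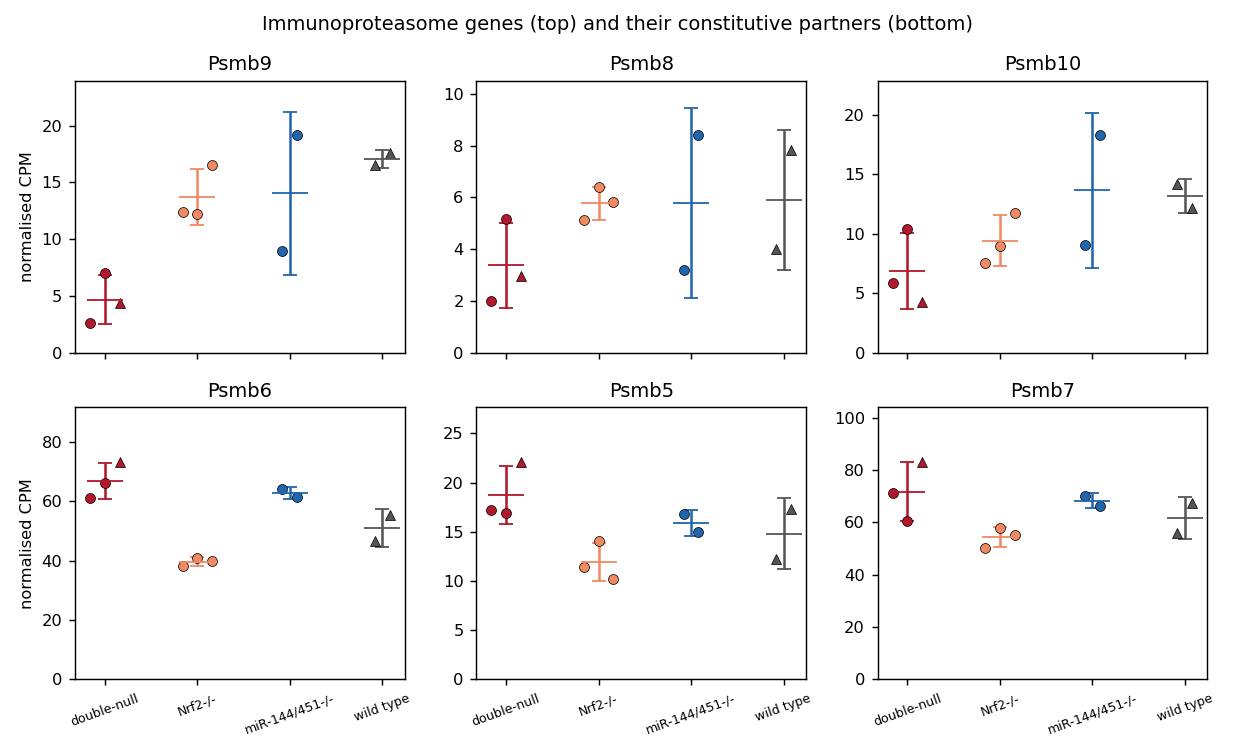
Normalised CPM of the immunoproteasome genes Psmb9, Psmb8 and Psmb10 (top) and of the constitutive subunits they replace, Psmb6, Psmb5 and Psmb7 (bottom), with 1 point per library (circles male, triangles female), the genotype mean and the SD. Psmb9 is lowest in the 3 double-null libraries while Psmb6 is lowest in the 3 Nrf2-/- libraries, and the 2 miR-144/451-/- libraries lie far apart for all 3 immunoproteasome genes.

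Immunoproteasome genes were also set against the subunits they replace. The FPKM ratio of Psmb9 to Psmb6 was 0.0357 ± 0.0163 in double-null, 0.177 ± 0.0314 in Nrf2-/- (n = 3 each), 0.115 ± 0.0621 in miR-144/451-/- and 0.172 ± 0.0135 in wild type libraries (SD, n = 2 each). The ratio of Psmb8 to Psmb5 was 0.0608 ± 0.0342 in double-null, 0.161 ± 0.0221 in Nrf2-/-, 0.123 ± 0.0860 in miR-144/451-/- and 0.128 ± 0.0288 in wild type libraries. Psmb10 to Psmb7 gave 0.204 ± 0.125 in double-null, 0.346 ± 0.0707 in Nrf2-/-, 0.405 ± 0.208 in miR-144/451-/- and 0.434 ± 0.102 in wild type libraries. For the first and second pair all double-null ratios lay below all Nrf2-/- ratios. The constitutive gene rose in both pairs, Psmb6 by 0.75 and Psmb5 by 0.65 on the log2 scale. Psmb8 by itself overlapped between the groups and was not called (edgeR adjusted p = 0.212). Psmb5 shares 71.7% of its 31-base words with other genes, so the second ratio is uncertain. For Psmb10 and Psmb7 the groups overlapped.

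Some genes of antigen processing, of the interferon response and of B cells fell in the same comparison, in which 12.9% of all tested genes fell and 14.4% rose. Of 12 antigen processing genes 4 fell, the peptide transporter gene Tap1 (-1.94), the transactivator Nlrc5 (-1.62), the class I light chain B2m (-1.23) and the loading factor Tapbp (-0.92), and 2 rose, the proteasome activator genes Psme1 and Psme2. DESeq2 called Psme1 higher but not Psme2. The list median was -0.57. Psmb9 overlaps Tap1 on the opposite strand, with 4.79% of its 31-base words shared and 6799 counts for Tap1 against 1688 for Psmb9, and the strand setting of the counting is not given in the sources used here. Of 25 interferon response genes 16 fell, with a median of -1.52, and their sum was 1851 to 3084 CPM in double-null and 4714 to 5544 CPM in Nrf2-/- libraries. In miR-144/451-/- libraries this sum was 5487 and 1868 CPM, and in wild type 4751 and 6842 CPM.

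Of 11 B cell markers 10 fell, and their sum was 352 to 774 CPM in double-null, 952 to 1102 CPM in Nrf2-/-, 702 and 917 CPM in miR-144/451-/- and 1244 and 1577 CPM in wild type libraries. Macrophage markers summed to 83.6 to 368 CPM in double-null and 325 to 1087 CPM in Nrf2-/- libraries. All 12 had a negative value, with a median of -1.46, 1 called lower and 8 lower at an unadjusted p under 0.05. All 10 T cell markers were negative, with a median of -0.88, 1 called lower and 2 at an unadjusted p under 0.05. The called shares of both lists lay below that of all genes. All 7 NK cell markers were negative, with a median of -1.52, 2 called lower and 6 at an unadjusted p under 0.05. DESeq2 called 3 macrophage, 2 T cell and 3 NK cell markers lower. Neutrophil markers pointed the other way, with a positive value in 10 of 10 and a median of 0.82. None of them was called by edgeR or DESeq2, and at an unadjusted p under 0.05 there were 0. Their sum was 1130 to 1214 CPM in double-null libraries, against 176 to 1193 CPM in Nrf2-/- libraries, which overlapped. Of 8 megakaryocyte markers 2 rose, Itga2b (1.90) and Gp1bb (2.69), and 1 fell, Gp9 (-1.18). No marker of these lists was at 0 in every library. Of the 13 erythroid markers 3 fell, among them the regulator gene Klf1 (log2 fold change -1.10) and the erythropoietin receptor gene Epor (-0.48). The erythroid list was mixed, with 5 positive and 8 negative values, a median of -0.31 and a highest value of 0.55. DESeq2 called 1 erythroid marker higher and 5 lower. In bulk RNA, fewer cells of a type and less RNA per cell cannot be told apart, and the part of leukocytes in the Psmb9 values was not tested.

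Genes that work with the proteasome changed in part in double-null against Nrf2-/- cells, where 14.4% of all tested genes rose and 12.9% fell. Of 15 listed activators and assembly factors 14 were tested, 5 rose and 1 fell, with a median of 0.33. The share that fell was below that of all genes. The largest change was in Ecpas, which binds and holds core and regulatory particle together (1.05 ± 0.14, edgeR adjusted p = 0.000391), followed by Pomp, which guides core assembly (0.81 ± 0.14). Adrm1, a ubiquitin receptor of the base, rose by 0.66, Psme1 by 0.59 and Psme2 by 0.38, and Psmf1, which binds the core and inhibits it in vitro, fell by 0.67 ± 0.15. Psme2 was not called by DESeq2. Among 14 genes of proteasome transcription and substrate delivery 4 rose, with a list median of 0.12. They were the ubiquitin shuttles Rad23b (1.34 ± 0.14, edgeR adjusted p = 0.000134) and Ubqln1 (1.01 ± 0.16), the unfolding ATPase Vcp (0.81 ± 0.13) and Txnl1, a thioredoxin-like protein bound to the proteasome (0.37). Txnl1 was not called by DESeq2. Nfe2l1, the Nrf1 gene, had -0.26 ± 0.13 and was not called (edgeR adjusted p = 0.168). None of the 4 ubiquitin genes was called by edgeR or DESeq2 in this comparison, and at an unadjusted p under 0.05 there were 2 higher.

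The calls were also counted by promoter letters. Of the 5 members with TGACNNNGC in the window 2 rose, Psmb5 and Psmb6, and of the 27 tested members with a window that lacks it 15 rose. Of the 13 tested members with CCAAT 6 rose and 1 fell, and of the 19 without it 11 rose. These are counts, without a test.

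Cluster loss in cells that keep Nrf2, miR-144/451-/- against wild type, gave no call among the members. Of 39, edgeR called 0 higher (2.4% of all tested genes) and 0 lower (2.23%), while unadjusted p-values under 0.05 were found for 8 higher and 1 lower. DESeq2 called Psmb3 and Psmb4 higher, 2 members in all. The median was 0.18 over the members and 0.24 over the standard subunits, against 0.02 over all genes. There were 32 members with a positive value and 7 with a negative one. Groups did not overlap for 18 members higher (24.2% of all genes) and 4 lower (22.8%, Psma1, Psmc3ip, Psmd5 and Psmd7). Both shares are to be read with only 2 libraries a group.

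Psmb3 and Psmb4 came closest to the threshold. Psmb3 had 65.8 and 69.9 CPM in miR-144/451-/- libraries, against 41.5 and 48.1 CPM in wild type libraries (0.60 ± 0.16, edgeR adjusted p = 0.059). Psmb4 had 178 and 160 CPM in miR-144/451-/- libraries, against 109 and 124 CPM in wild type libraries (0.54 ± 0.15, edgeR adjusted p = 0.0653). The groups did not overlap for either gene. Of the partner genes Psme1 (0.64 ± 0.14, edgeR adjusted p = 0.0238), Ecpas (0.75 ± 0.16, edgeR adjusted p = 0.0281) and Rad23b (0.86 ± 0.17, edgeR adjusted p = 0.0196) rose. With a term for sex, edgeR called only 1 of all 14110 tested genes higher in this comparison and 0 lower, so at most 1 of these calls stayed.

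The immunoproteasome genes differed more between the miR-144/451-/- libraries than between the groups. Psmb9 had 8.97 and 19.1 CPM in miR-144/451-/- libraries, against 16.5 and 17.6 CPM in wild type libraries (-0.27 ± 0.41). Psmb8 had 3.21 and 8.39 CPM in miR-144/451-/- libraries, against 4.01 and 7.82 CPM in wild type libraries (-0.01 ± 0.52). Psmb10 had 9.05 and 18.2 CPM in miR-144/451-/- libraries, against 14.1 and 12.1 CPM in wild type libraries (0.06 ± 0.42). For each gene replicate 1 was the low miR-144/451-/- library. The interferon response sum was higher in replicate 1 than in replicate 3, and a relation between them was not tested. Psmd5 had 94.1 and 88.2 CPM in miR-144/451-/- libraries, against 112 and 134 CPM in wild type libraries, without overlap (-0.43 ± 0.15, edgeR adjusted p = 0.135).

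Nrf2 loss in cells that keep the cluster, Nrf2-/- against wild type, likewise gave no call. Of 39 members edgeR called 0 higher (0.128% of all tested genes) and 0 lower (0.0638%), and DESeq2 called none. At an unadjusted p under 0.05 there were 14 lower and 0 higher. Negative values were found in 37 of 39 members, with a median of -0.28 over the members and -0.02 over all genes. All Nrf2-/- libraries lay below both wild type libraries in 24 members (20.1% of all genes) and above both in 0 (15.7%). Psmb3 had the lowest value, with 28.4, 32.9 and 26.8 CPM in Nrf2-/- libraries, against 41.5 and 48.1 CPM in wild type libraries, without overlap (-0.61 ± 0.15, edgeR adjusted p = 0.231). Psma5 had -0.56, Psma7 -0.49 and Psmd3 -0.43, none of them called. Immunoproteasome genes had -0.32 ± 0.38 for Psmb9, -0.03 ± 0.48 for Psmb8 and -0.48 ± 0.39 for Psmb10. When sex was added as a term, which only the double-null libraries can inform, the median of the members was -0.10.

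This comparison and double-null against Nrf2-/- share the Nrf2-/- libraries, so the same low values enter both, and the wild type libraries serve 3 comparisons. Among the 4 genotypes, the mean CPM was lowest in Nrf2-/- for 30 of the 32 standard subunits, in double-null for Psma1 and in wild type for Psmd11. The highest mean was in double-null for 16 of the 32, in miR-144/451-/- for 14 and in wild type for 2. All 3 immunoproteasome genes had their lowest mean in double-null cells.

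Nrf2 loss in cells without the cluster, double-null against miR-144/451-/-, gave no call by edgeR, 0 higher (0.0496% of all tested genes) and 0 lower (0.0142%). At an unadjusted p under 0.05 there were 1 higher, Psmd8, and 4 lower, Psma8, Psmb9, Psmb10 and Psmd5, and DESeq2 called Psmb9 lower. The median was -0.03 over the members and -0.02 over all genes, and the 32 standard subunits divided into 16 positive and 16 negative values. Groups did not overlap for 4 members higher (12.1% of all genes), Psmb5, Psmd4, Psmd8 and Psmd10, and for 6 lower (12.4%), Psma7, Psma8, Psmb3, Psmb9, Psmc1 and Psmd5. Psmb9 had 2.68, 6.99 and 4.40 CPM in double-null libraries, against 8.97 and 19.1 CPM in miR-144/451-/- libraries, all lower (-1.59 ± 0.38, edgeR adjusted p = 0.213). Psmd8 had 159, 163 and 166 CPM in double-null libraries, against 141 and 113 CPM in miR-144/451-/- libraries, all higher (0.36 ± 0.13, edgeR adjusted p = 0.393). Psma8, the testis form, had 1, 10 and 11 counts in double-null libraries, against 24 and 28 counts in miR-144/451-/- libraries (-1.63 ± 0.73, edgeR adjusted p = 0.46).

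Loss of both, double-null against wild type, called 4 of 39 members higher, Psmb4, Psmd4, Psmd6 and Psmd8, where 8.26% of all tested genes were higher. It called 2 lower, Psmb9 and Psmd5, where 8.95% of all genes were lower. The share called higher was thus close to that of all genes, and the share called lower was below it. The median was 0.20 over the members and -0.02 over all genes. Psmb4 had 188, 165 and 199 CPM in double-null libraries, against 109 and 124 CPM in wild type libraries, without overlap (0.66 ± 0.14, edgeR adjusted p = 0.0088). Psmd6 stood at 0.60 ± 0.14 (edgeR adjusted p = 0.0145), Psmd8 at 0.59 ± 0.13 (edgeR adjusted p = 0.0117) and Psmd4 at 0.54 ± 0.14 (edgeR adjusted p = 0.0219). Psmd5 had 81.3, 65.6 and 71.7 CPM in double-null libraries, against 112 and 134 CPM in wild type libraries, all lower (-0.76 ± 0.13, edgeR adjusted p = 0.00412). Psmb9 had a log2 fold change of -1.86 ± 0.38 (edgeR adjusted p = 0.00933), Psmb10 -0.94 ± 0.39 (edgeR adjusted p = 0.119) and Psmb8 -0.80 ± 0.48 (edgeR adjusted p = 0.278). Groups did not overlap for 15 members higher (24.9% of all genes) and 5 lower (25.3%). The upward calls did not pass without wild type replicate 1, nor the downward calls without wild type replicate 3. Each of these fits leaves 1 wild type library, and fewer of all tested genes passed in them as well. The losses are therefore not particular to the members. With the replicate number as a block Psmd4 was lost (0.52, edgeR adjusted p = 0.0628), and with a term for sex Psmb4 alone stayed called.

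Whether cluster loss acted differently with and without Nrf2 was tested by the interaction, which called no member in edgeR (0.0638% of all tested genes, 0.0283% higher and 0.0354% lower) and none in DESeq2. The median of the members was 0.25, against 0.01 over all genes, and the smallest adjusted p was 0.999. At an unadjusted p under 0.05 there were 4 members above 0, Psmb6 (0.45 ± 0.19), Psmd2 (0.51 ± 0.21), Psmd6 (0.46 ± 0.19) and Psmd8 (0.47 ± 0.18), and 1 below, Psmb9 (-1.27 ± 0.54). The calls in double-null against Nrf2-/- and their absence in miR-144/451-/- against wild type are therefore not shown to differ.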

How the data were processed

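RNA was measured in 10 libraries of spleen erythroblasts isolated with a Miltenyi Biotec kit and extracted with Trizol, per the labels' protocols. The authors deposited raw counts per Ensembl gene and FPKM values. Each FPKM was a quotient of the count, the library total and 1 length per gene for 114012 of 114012 deposited values with at least 20 counts (tolerance 0.1%). Tools named in the submitters' processing notes are HISAT2 2.1.0, TopHat2, Bowtie2 2.2.3 and CASAVA, with the build mm9. The counter, and whether it used strand, is not given in the sources used here. Symbols were matched for 99.6% of identifiers.

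All libraries entered a single edgeR 4.0.16 fit in R 4.3.3 (TMM, filterByExpr, robust quasi-likelihood test, two-sided, 14110 genes, 6 residual degrees of freedom). Tests used the counts, and FPKM served to compare levels between genes. CPM are means ± SD, and the SE of a log2 fold change was taken from it and the F statistic. DESeq2 1.42.0, other scalings, filters and fits were alternatives. The script was tested on simulated data. Words of 31 bases were compared across annotated transcripts to find shared sequence.

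The members and lists were chosen with earlier results of these data known. Named members were the immunoproteasome genes, in each class the largest 2 and the smallest change in double-null against Nrf2-/-, and calls elsewhere or against their class. Others named for an unadjusted p, a position in an order or their role were chosen after their values were seen. Replicates differed by more than sampling noise (chi-square per degree of freedom 17.3 to 30.4). The values of 1 erythroid marker are not reported here.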

Additional observations from a re-analysis of the deposited data

How the results depend on the processing

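For double-null against Nrf2-/-, the count of members called higher ran from 16 to 23 over 20 alternatives and the median of the members from 0.31 to 0.51, and Psmd5 was called lower in all 20. Psmb9 was called lower in 19 of them, and in the male libraries alone 1 member was lower. In miR-144/451-/- against wild type the members called higher numbered 3 without scaling factors (Psmb3, Psmb4 and Psmd6), 2 with DESeq2 and 2 with globin genes removed (Psmb3 and Psmb4 in both), and 0 to 1 with a library left out, the 1 being Psmb3 without double-null replicate 3. A term for sex moved the median of the members to 0.37 in that comparison, to -0.10 in Nrf2-/- against wild type, to 0.34 in double-null against wild type and to 0.0 in the interaction. In double-null against miR-144/451-/-, 1 member was lower with DESeq2 (Psmb9) and 2 without the low-count filter (Psmb9 and Psmb10), and the median was -0.24 without scaling factors, where that of all genes was also -0.24, and -0.12 to 0.07 with a library left out, so the signs of members near 0 in that comparison carry no direction. Without scaling factors the all-gene median was 0.15 in miR-144/451-/- against wild type (497 genes higher and 247 lower), -0.12 in Nrf2-/- against wild type and -0.11 in double-null against wild type (803 higher and 1433 lower). In double-null against wild type 7 members were higher with globin genes removed (Psma3, Psmb6 and Psmd2 besides the 4), 1 with a term for sex and 0 to 5 with a library left out. The count of members lower there was 0 with a term for sex and 0 to 3 with a library left out.

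Among the 35 results of named members followed through the alternatives, signs reversed for immunoproteasome genes, none of them called. Other members were not followed one by one. Psmb8 in miR-144/451-/- against wild type was 0.18 without scaling factors, 0.040 without the filter, 0.013 with globin genes removed and 0.011 in a fit of those groups alone, and -0.84 to 0.55 with a library left out. Psmb10 there was -0.001 with the replicate block and -0.88 with a term for sex, and -0.52 to 0.48 with a library left out, and Psmb9 was -0.90 to 0.17. With a library left out Psmb8 was -0.41 to 0.52 in Nrf2-/- against wild type and -1.32 to 0.039 in double-null against miR-144/451-/-. The cause was not tested. Over 686 results of named members under an alternative, 648 kept direction and side of the threshold, 14 lost the call, 9 gained it and 15 reversed.

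The replicate numbers are shared between groups, but same-numbered double-null and Nrf2-/- libraries correlated at 0.004, -0.061 and -0.034, and those of the other comparisons, with 2 pairs each, at -0.111 to 0.287, the highest being replicate 1 of double-null and miR-144/451-/-. The labels name no shared source and in no comparison did every pair exceed 0.1, so the samples were treated as unpaired. In a group of 2 libraries the deviations from the group mean mirror each other, so this check cannot exclude a shared source. With the replicate block 18 members rose and 2 fell in double-null against Nrf2-/-, and 3 rose and 2 fell in double-null against wild type. A fit of the compared groups alone was not run for the interaction, where it equals the one reported, and male libraries alone allowed only the comparisons of double-null with Nrf2-/- and with miR-144/451-/-. Depth limits Psmb8, with 27 to 143 counts in a library, and Psma8.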
